A study of Mus musculus with 6 samples.

Results

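The MHC class I set comprised 10 genes of antigen processing and presentation. They were chosen by function, with earlier results of these data known. The genes are B2m (gene ID 12010), H2-K1 (14972), H2-D1 (14964), Tap1 (21354), Tap2 (21355), Tapbp (21356), Psmb8 (16913), Psmb9 (16912), Erap1 (80898) and Nlrc5 (434341). All 10 were found by gene ID among the 18857 genes with a read in at least 1 of 6 libraries. The libraries held polyA RNA of mouse embryonic stem cells (ESCs) of the KH2 line, on a C57BL/6 x 129 background, read as single 50 base reads. KH2 is a line built for doxycycline (Dox) control of transgenes. Of the engineered genotype iErk1; Erk KO, in which the Erk kinases are knocked out and Erk1 is supplied under Dox control, 1 library came from cells kept for 96 hours without Dox and given the Mek inhibitor PD0325901 for the last 48 of them. The other 3 libraries of that genotype came from cells without inhibitor after 0, 48 and 96 hours without Dox. Wild-type KH2 cells gave 1 library after 48 hours of PD0325901 and 1 library without treatment. The labels name neither the promoter of the transgene, the number of clones, the inhibitor's dose nor the presence of feeder cells. Each group had 1 library and no replicates, so a ratio compares 2 libraries and its 95% interval covers counting error only.

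MHC class I molecules carry peptides from proteins inside the cell to its surface, where cytotoxic T cells read them. The proteasome cuts the proteins, the Tap transporter moves the peptides into the endoplasmic reticulum, tapasin and Erap1 help to load and trim them, and a heavy chain presents each peptide together with beta-2-microglobulin. Transcription of these genes is known to be driven by the transactivator Nlrc5, acting with RFX, CREB/ATF and NF-Y proteins at a shared promoter module, and by interferon, in part through Irf1; mouse ESCs are known for low class I levels at the cell surface.

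Of the 10 genes, 8 had an entry in the RefSeq promoter table (build GRCm38.p6), which holds 250 bases before each gene's start. The heavy chain and B2m promoters are shown first because these 3 genes encode the complex at the cell surface. In the 140 bases of each of the next 3 lines the capitals TGACG, the core of a CREB/ATF element, and ATTGG, the NF-Y element, lie 20 bases apart. The other capitals are GAAANNGAA, part of an interferon response element, in B2m, and GGGGATTCC, part of an NF-kappa-B element, in H2-K1 and H2-D1. Other spellings of an interferon response element were not marked, so the H2-K1 and H2-D1 windows are not shown to lack it. The B2m window is chr2:122147509-122147648 on the + strand, that of H2-K1 chr17:34000349-34000488 on the − strand, and that of H2-D1 chr17:35262893-35263032 on the + strand.
B2m: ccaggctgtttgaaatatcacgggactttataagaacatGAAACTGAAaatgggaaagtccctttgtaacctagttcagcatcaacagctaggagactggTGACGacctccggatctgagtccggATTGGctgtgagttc
H2-K1: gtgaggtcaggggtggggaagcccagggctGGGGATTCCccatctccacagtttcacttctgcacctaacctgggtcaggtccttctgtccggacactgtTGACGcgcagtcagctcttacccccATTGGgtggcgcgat
H2-D1: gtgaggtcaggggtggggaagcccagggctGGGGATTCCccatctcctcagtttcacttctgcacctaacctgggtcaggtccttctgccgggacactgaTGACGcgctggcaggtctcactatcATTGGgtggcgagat
The first base of TGACG lay 78 bases before the start of B2m, 41 before that of H2-K1 and 101 before that of H2-D1. The H2-K1 and H2-D1 windows were identical at 128 of 140 bases (91.4%), whereas B2m matched H2-K1 at 36.4% of positions.

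Psmb9, Tap1, Psmb8 and Tap2 follow one another as neighbouring protein-coding genes on chromosome 17, where H2-K1, H2-D1 and Tapbp also lie. Psmb9 and Tap1 start back to back, and the next line gives the whole 225 bases between both starts (chr17:34187331-34187555, + strand, read towards Tap1), because it lies before both a transporter and a proteasome gene. Its capitals are CCAAT, which is ATTGG on the other strand, and TGACG.
Tap1-Psmb9: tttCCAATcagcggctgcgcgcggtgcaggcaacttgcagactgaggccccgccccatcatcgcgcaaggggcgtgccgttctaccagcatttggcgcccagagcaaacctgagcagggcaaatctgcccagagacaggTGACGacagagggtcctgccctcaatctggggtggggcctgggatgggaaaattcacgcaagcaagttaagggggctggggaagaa
All motifs were searched on both strands of the 250 bases before each start. The pair TGACG, 20 bases, ATTGG was present in 0.0914% of 32817 promoters of that length, and in B2m, H2-K1 and H2-D1 among the members. TGACG alone was in 17.7% and ATTGG alone in 33.8% of all promoters, GAAANNGAA in 7.12% (B2m and Erap1), GGGGATTCC in 0.213% (H2-K1 and H2-D1) and TTCNNNGAA, the Stat element, in 7.01% (Psmb8). Followed by A, GAAANNGAA was in 2.97% of promoters and in B2m but not Erap1, and followed by CC, GGGGATTCC was in 0.0305% and again in H2-K1 and H2-D1. TGACG and ATTGG are parts of the spaced pair, and a match is a description of letters only. Lack of a match does not show that an element is absent.

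Library totals ran from 9.05 to 9.95 times 1e6 reads, and between 16042 and 17403 genes had a read. Levels are the authors' RPKM, in which a gene's reads are divided by its length in kilobases and by the library total in units of 1e6 reads. Mapk3, which encodes Erk1, had 14.8, 6.86 and 6.75 RPKM after 0, 48 and 96 hours without Dox and 9.18 RPKM at 96 hours with PD0325901, against 52.8 and 56.4 RPKM in KH2 cells with and without the inhibitor. All 10 ESC markers were detected in every library, with summed levels between 2868 and 4324 RPKM.

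The members spanned a wide range of levels, with B2m highest and Nlrc5 lowest in most libraries. B2m was first in each of the 6 libraries, between 29.2 and 226 RPKM, and H2-K1 was second in 5 of them. Nlrc5 never reached 1 RPKM and was last in 5 libraries, with Psmb8 last in the engineered line with Dox. In that library the neighbours H2-K1 (5.86 RPKM) and Tapbp (5.60 RPKM), and Nlrc5 (0.0918 RPKM) and Psmb8 (0.0869 RPKM), had overlapping counting intervals. The highest over the lowest library was 3.58-fold for Erap1, 7.74-fold for B2m, 12.2-fold for H2-K1 and 58.7-fold for Psmb9.

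**Figure D1:**
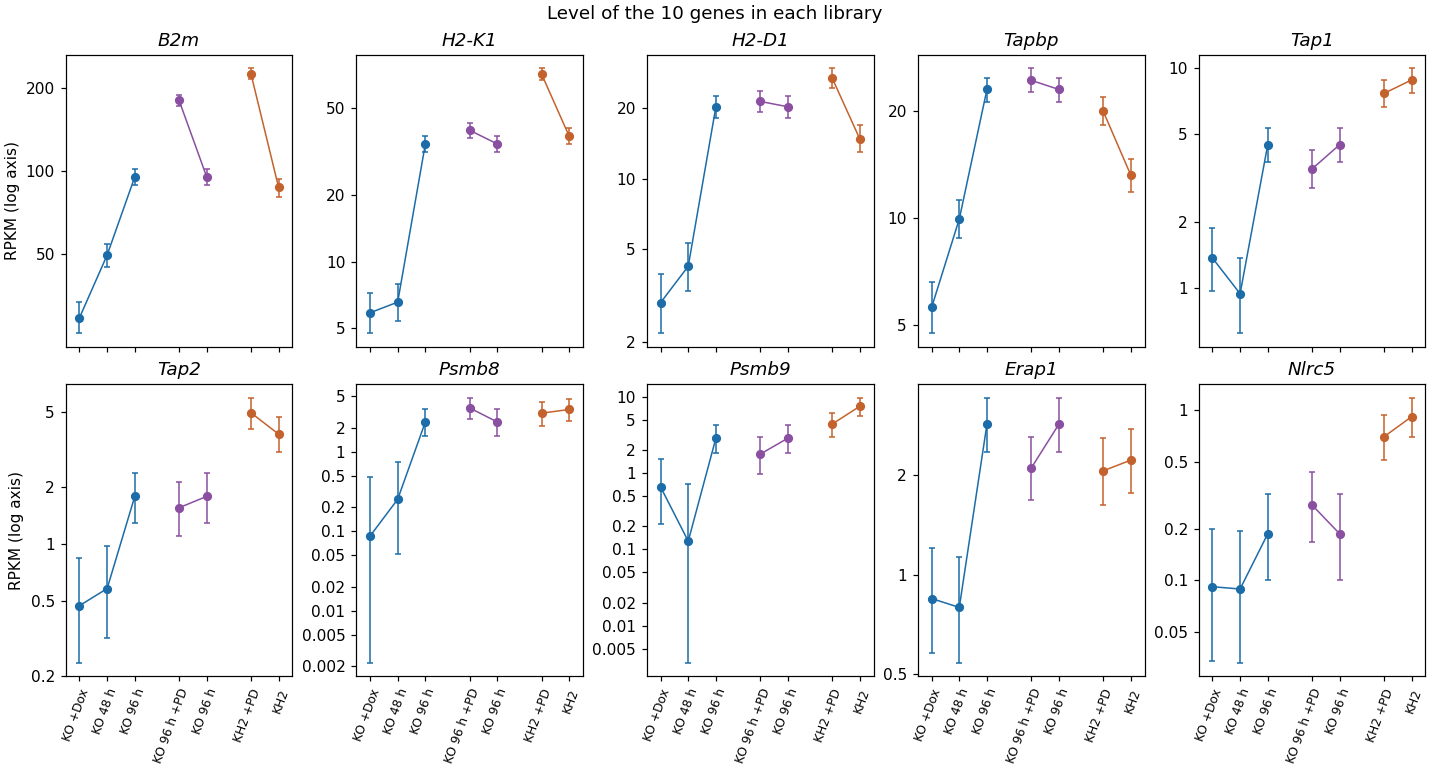
Level of each of the 10 genes in RPKM (log axis, own scale per gene) in single libraries; bars are exact 95% Poisson intervals, and the KO 96 h library is drawn in both the Dox series and the PD0325901 pair. B2m stood at 29.2, 49.4 and 95.2 RPKM after 0, 48 and 96 hours without Dox, and at 226 RPKM in KH2 cells with PD0325901 against 87.1 RPKM without it.

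Dox was withdrawn from the Erk knockout line to study loss of Erk in ESCs. At 48 hours none of the class I genes that could be tested had changed 2-fold, though B2m (ratio 1.69) and Tapbp (1.77) were higher. At 96 hours the set was higher. No library had Dox withdrawn without loss of Erk, so removal of the drug, time in culture and loss of Erk cannot be told apart. A gene is called higher or lower where its log2 ratio of RPKM plus 0.5 was at least 1 in size, where either library reached 1 RPKM, the 2 libraries together gave at least 20 reads and the 95% interval excluded 1. At 96 hours against 0 hours 9 of the 10 members rose and none fell, while 7.62% of the 11804 genes tested were higher and 2.07% lower. The members' median log2 ratio was 1.61, and that of all genes tested was 0.05. The exception was Nlrc5, which was under 1 RPKM in both libraries. Psmb8, Psmb9, Tap2 and Erap1 were under 1 RPKM with Dox, so they met the limit on low levels only through the 96 hour library.

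The 3 components of the surface complex rose. B2m, the invariant light chain, had 29.2, 49.4 and 95.2 RPKM after 0, 48 and 96 hours. H2-K1, a classical heavy chain, had 5.86, 6.55 and 34.3 RPKM at these times, and H2-D1, the other classical heavy chain of these cells, 2.94, 4.21 and 20.3 RPKM. The heavy chains were thus low at both early times and high at 96 hours, whereas B2m was intermediate at 48 hours. At 96 hours against 0 hours the ratio of scaled reads was 3.26 for B2m (2.81 to 3.78), 5.86 for H2-K1 (4.69 to 7.38) and 6.89 for H2-D1 (5.09 to 9.52).

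The peptide transporter and the loading factors rose as well. Tap1, a subunit of the transporter, had 1.37, 0.943 and 4.49 RPKM, and Tap2, its partner, 0.470, 0.579 and 1.78 RPKM (11, 14 and 44 reads). Tapbp, which encodes tapasin, the bridge between transporter and heavy chain, had 5.60, 9.93 and 23 RPKM. Erap1, which trims peptides in the endoplasmic reticulum, had 0.847, 0.796 and 2.85 RPKM. Tap1, Tap2 and Erap1 were low at 0 and 48 hours with overlapping counting intervals, and Tapbp stood in between at 48 hours. The ratios at 96 hours against 0 hours were 3.28 for Tap1 (2.27 to 4.84), 3.78 for Tap2 (1.92 to 8.12), 4.10 for Tapbp (3.42 to 4.95) and 3.37 for Erap1 (2.26 to 5.15).

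The inducible proteasome subunits Psmb8 and Psmb9 had at most 5 reads before 96 hours. Psmb8, a catalytic subunit of the immunoproteasome, had 1, 3 and 29 reads after 0, 48 and 96 hours (0.0869, 0.253 and 2.38 RPKM). Psmb9, another such subunit, had 5, 1 and 23 reads (0.659, 0.128 and 2.87 RPKM). The ratio at 96 hours against 0 hours was 27.4 for Psmb8 with an interval of 4.54 to 1120, and 4.35 for Psmb9 with an interval of 1.62 to 14.6. Nlrc5, the class I transactivator, had 6, 6 and 13 reads, and its ratio of 2.05 had an interval of 0.726 to 6.57, so a difference was not detectable at this depth.

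At 48 hours against 0 hours, the comparison that the design text names for Erk loss, 0 of the 10 members were called. Of 11386 genes tested 2.77% were higher and 2.13% lower. Only 5 of the 10 members met the limits on level and reads. Tap2, Psmb8, Psmb9, Erap1 and Nlrc5 did not, so they could not be called. The members' median log2 ratio was 0.15, against −0.03 for all genes tested. Intervals lay above 1 for B2m at 1.69 (1.44 to 1.99) and for Tapbp at 1.77 (1.44 to 2.19), both short of the 2-fold size, and included 1 for the other 8 members. Of all genes tested 23.5% had an interval above 1, beside 2 of the 5 members tested. At H2-K1 the ratio was 1.12 (0.837 to 1.49).

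Between 48 and 96 hours 8 of the 10 members rose and none fell, against 4.55% higher and 0.469% lower of 11722 genes. The members' median was 1.58 and that of all genes tested 0.08. Psmb9 (22.4, interval 3.64 to 924), Psmb8 (9.42, 2.92 to 48.3), H2-K1 (5.24, 4.25 to 6.51), H2-D1 (4.81, 3.71 to 6.29) and Tap1 (4.77, 3.13 to 7.50) had the highest ratios. B2m at 1.93 (1.71 to 2.18), with a log2 ratio of 0.94, and Nlrc5 were the 2 members that did not pass. Tap1, Tap2, Psmb8, Psmb9 and Erap1 were under 1 RPKM at 48 hours and met the limit on low levels only through the 96 hour library. These comparisons share the 0 hour or the 96 hour library, and with a floor of 50 reads over both libraries 7 members rose at 96 hours against 0 hours and 6 at 96 hours against 48 hours.

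**Figure D2:**
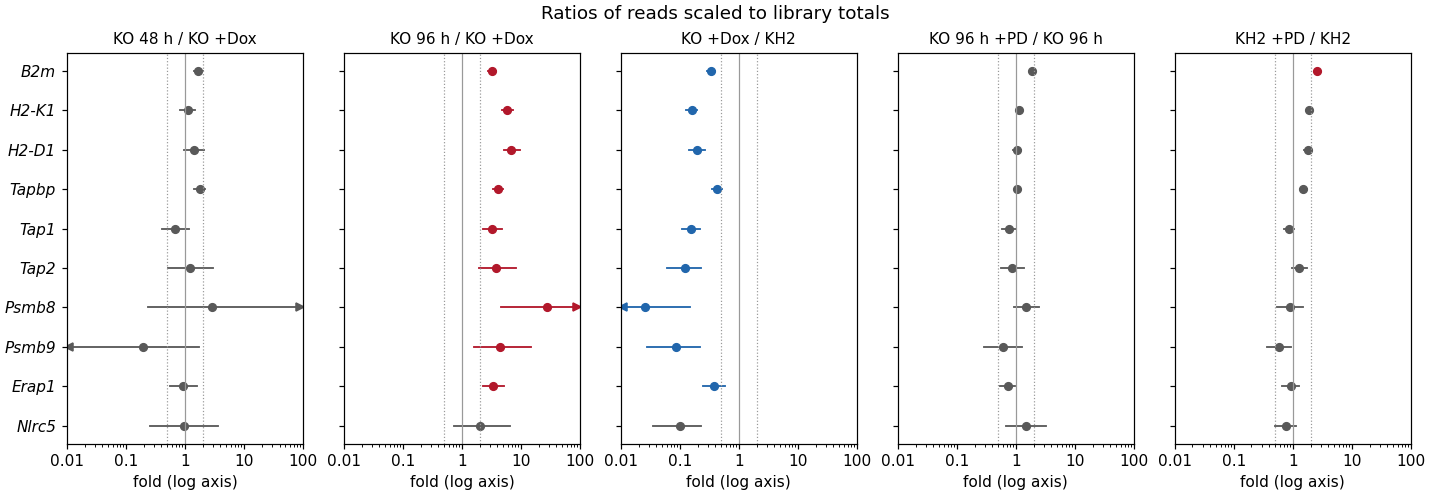
Ratios of reads scaled to library totals (log axis) for the 10 genes in 5 comparisons, with exact 95% Clopper-Pearson intervals and arrows where an interval leaves the axis; red passed the size limits as higher, blue as lower, grey did not pass, and dotted lines mark 0.5 and 2. All genes but Nlrc5 are red for KO 96 h over KO with Dox and blue for KO with Dox over KH2, and B2m alone is red for KH2 with PD0325901 over KH2.

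Genes that answer to interferon also rose at 96 hours, and some had risen by 48 hours, when none of the members was called. Of 24 interferon-stimulated genes 22 rose at 96 hours against 0 hours and none fell, with a median log2 ratio of 2.91. Of all genes tested 7.62% were higher. The list's summed level was 165, 239 and 641 RPKM after 0, 48 and 96 hours. Of the 22 genes 16 were under 1 RPKM with Dox and met the limit on low levels only through the 96 hour library. Isg15, a ubiquitin-like modifier, had 0, 26 and 175 reads, Usp18, the protease that removes it, 1, 21 and 372 reads, and Irgm1, an immunity-related GTPase, 20, 51 and 877 reads. At 48 hours 6 of the 24 genes were already higher and 1 (Ddx58) was lower, at a median of 0.69, and 5 of the 6 were under 1 RPKM with Dox. Of all genes tested 2.77% were higher and 2.13% lower at 48 hours. Of 11 interferon signalling genes Stat2 (ratio 4.19, interval 3.63 to 4.84) and Irf9 (2.73, 2.16 to 3.47) rose at 96 hours against 0 hours. Ifng and Ifnb1, the interferon genes of the list, had no row in any of the 6 tables.

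Among the regulators that act at class I promoters, Irf1 rose at 96 hours. Irf1, a transcription factor that binds interferon response elements, had 5.68, 5.41 and 13.2 RPKM after 0, 48 and 96 hours, a ratio of 2.33 (1.87 to 2.91) at 96 hours against 0 hours. Irf1 followed the course of the heavy chains, low at 48 hours and higher at 96 hours. Rfx5, a subunit of the RFX complex, had 2.64, 2.73 and 3.55 RPKM at these times and did not pass. The NF-kappa-B genes Nfkb1 (14.3, 8.56 and 6.96 RPKM) and Rela (14.0, 14.9 and 9.23 RPKM) went the other way without passing. At 96 hours against 0 hours Nfkb1 was 2.05-fold lower (1.78 to 2.38) and Rela 1.52-fold lower (1.29 to 1.80). Of the 12 regulators listed 7 had log2 ratios above 0 and 5 below.

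Other class I and class II genes were higher at 96 hours as well. Of 16 other heavy chain genes H2-Q4 (ratio 3.25, interval 2.14 to 5.05) and H2-T22 (18.9, interval 4.90 to 161, from 2 reads with Dox) rose against 0 hours, and H2-Q4, H2-Q10, H2-T3, H2-T22 and H2-T23 rose against 48 hours. H2-T22 with Dox, and all of these but H2-Q4 at 48 hours, were under 1 RPKM. Of all genes tested 7.62% were higher at 96 hours against 0 hours and 4.55% against 48 hours. H2-K1 and H2-D1 together held 44.0%, 39.9% and 67.1% of the reads on 18 heavy chain genes after 0, 48 and 96 hours, with exact intervals of 38.5% to 49.7%, 35.3% to 44.6% and 64.5% to 69.6%. Of 10 class II genes, which present peptides from outside the cell, H2-Ab1, H2-Eb1, H2-DMb1, Cd74 and H2-DMa rose against 0 hours, at summed levels of 1.57, 2.87 and 11.5 RPKM after 0, 48 and 96 hours. All 5 were under 1 RPKM with Dox and met the limit on low levels only through the 96 hour library. H2-Ab1 had 1, 4 and 30 reads at these times. Among 7 class I-like genes Fcgrt, the neonatal Fc receptor that also pairs with B2m, rose, at 1.71, 5.69 and 13.7 RPKM.

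The constitutive machinery around the members changed less. Of 7 loading chaperone and translocon genes and 6 other peptidase genes none passed at 96 hours against 0 hours, with log2 ratios between −0.40 and 0.56. Of 8 other proteasome genes Psme2, a subunit of the interferon-inducible activator, rose 2.21-fold (1.87 to 2.63). Psmb5, the constitutive counterpart of Psmb8, had 65.2, 79.9 and 84.1 RPKM, Psmb6, that of Psmb9, 114, 145 and 159 RPKM, and Psmb7, that of Psmb10, 198, 211 and 222 RPKM. Per length, Psmb8 stood at 0.133%, 0.317% and 2.83% of Psmb5 and Psmb9 at 0.580%, 0.0885% and 1.81% of Psmb6 after 0, 48 and 96 hours. The intervals at 96 hours, 1.88% to 4.10% for Psmb8, did not overlap those at 0 or 48 hours (highest bound 0.929%), while for Psmb9 the interval of 1.14% to 2.72% overlapped that at 0 hours (0.188% to 1.36%). Psmb10, the remaining inducible subunit, was at 3.42%, 2.15% and 3.49% of Psmb7.

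**Figure D3:**
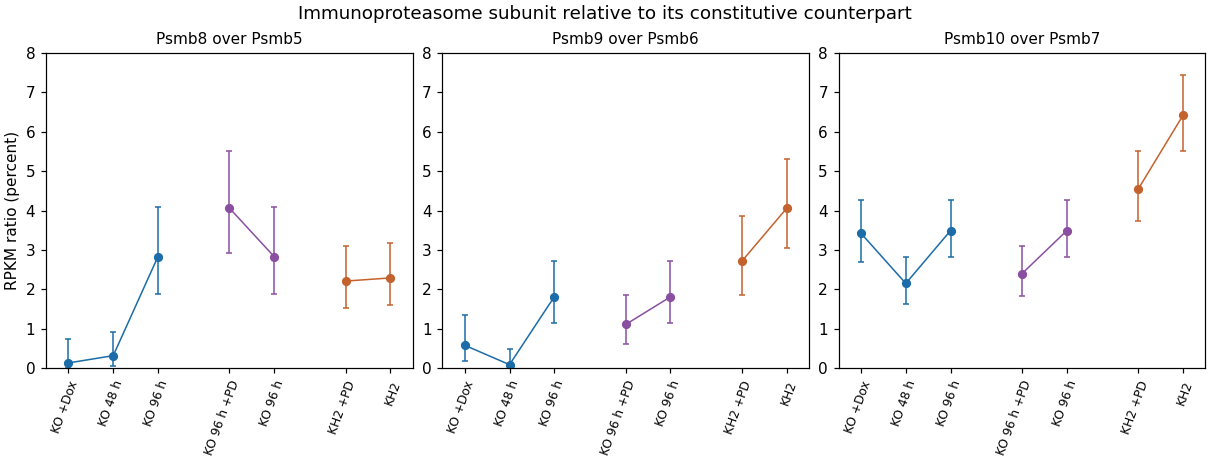
RPKM of each inducible proteasome subunit as a percent of its constitutive counterpart in single libraries, with exact 95% counting intervals; the KO 96 h library is drawn in both the Dox series and the PD0325901 pair. Psmb8 over Psmb5 is 0.133% in the engineered line with Dox, 2.83% after 96 hours without Dox and 2.29% in untreated KH2 cells.

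Markers of other cells were read beside these results. The 26 fibroblast markers summed to 633, 625 and 645 RPKM after 0, 48 and 96 hours, with Dcn and Lox higher and Pdgfra and Acta2 lower at 96 hours. The sum joins markers that moved apart, as Fn1 had 151, 193 and 213 RPKM and Vim 225, 170 and 166 RPKM at these times. At 96 hours against 0 hours the median log2 ratio of the 26 markers was 0.37, against 0.05 for all genes tested, with 16 of 26 above 0. Prrx1 (ratio 1.92, interval 1.63 to 2.27), Col3a1 (1.70, 1.42 to 2.04), Col5a1 (1.56, 1.41 to 1.73) and Col1a1 (1.51, 1.38 to 1.66) had intervals above 1 and did not pass. The members' summed level was 47.2, 72.8 and 187 RPKM, 3.97-fold higher at 96 hours than at 0 hours, and the part of fibroblast RNA in that difference was not tested. The 10 leukocyte markers summed to 10.4, 16.5 and 30.0 RPKM, with 1, 2 and 0 of them without a read. The leukocyte marker Ptprc, which defines the lineage, had 3, 1 and 3 reads, Lyz2 had 20, 63 and 86 reads and Cd3e had 13, 37 and 64 reads, and the part of such cells in the rise was not tested. In bulk RNA, fewer cells of a type and less RNA per cell cannot be told apart.

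Against untreated KH2 cells, the engineered line with Dox had lower levels throughout the class I set. In this comparison 9 of the 10 members fell and none rose, while 21.4% of the 12421 genes tested were lower and 2.76% higher. The members' median log2 ratio was −2.15 and that of all genes tested −0.37. Trimmed mean (TMM) scaling moved the median of all genes by 0.39 and the split of 343 higher and 2662 lower genes to 1006 and 1419, and the median was −0.58 in the shortest of 10 bins of gene length and −0.23 in the longest. Under TMM scaling 7 members still passed (not Tapbp at −0.78 or Erap1 at −0.71), and with ratios centred on genes of like length 6 passed (not B2m at −0.97, Tapbp at −0.84 or Erap1 at −0.68).

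Again the heavy chains fell more than the light chain in ratio. B2m had 29.2 RPKM with Dox and 87.1 RPKM in KH2 cells, 2.98-fold lower (2.56 to 3.47). H2-K1 had 5.86 RPKM with Dox against 37.2 RPKM in KH2 cells, 6.35-fold lower (5.08 to 8.0), and H2-D1 had 2.94 against 14.8 RPKM, 5.05-fold lower (3.69 to 7.04). The counting interval of B2m lies clear of those of both heavy chains. The ratio of H2-K1 to B2m per length was 0.200 in the engineered line with Dox (0.156 to 0.256) and 0.427 in KH2 cells (0.381 to 0.478).

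The transporter subunits and the inducible proteasome subunits Psmb8 and Psmb9 were lower as well, on fewer reads than H2-K1. Their intervals overlapped that of H2-K1. Tap1 had 1.37 RPKM with Dox against 8.84 RPKM in KH2 cells (6.46-fold lower, 4.57 to 9.35), and Tap2 0.470 against 3.80 RPKM (8.09-fold lower, 4.30 to 16.8). Psmb9 had 5 against 55 reads (11.4-fold lower, 4.6 to 36.5), and Psmb8 had 1 against 38 reads (39.3-fold lower, interval 6.65 to 1594). Tap2, Psmb8, Psmb9 and Erap1 reached 1 RPKM only in KH2 cells and so met the limit on low levels through that library. Tapbp had 5.60 against 13.2 RPKM (2.35-fold lower, 1.93 to 2.88), and Erap1 0.847 against 2.22 RPKM (2.62-fold lower, 1.72 to 4.08). Nlrc5 had 6 against 58 reads, a ratio of 0.0999 (0.0352 to 0.231), but at 0.919 RPKM in KH2 cells it stayed under the limit on low levels.

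Of the related lists, other heavy chains, class II and interferon-stimulated genes held many genes that were lower in the engineered line with Dox than in KH2 cells, and others did not. Of all 12421 genes tested 21.4% were lower in this comparison. Of 16 other heavy chain genes 7 were lower, led by H2-Bl (8 against 102 reads), H2-M3 (0 against 42 reads) and H2-Q4 (30 against 195 reads). Of 10 class II genes H2-Ab1 (1 against 108 reads), Cd74 (8 against 82 reads), H2-DMa (8 against 48 reads) and H2-Eb1 (4 against 18 reads) were lower, and of 24 interferon-stimulated genes 12 were lower at a median of −1.55. Of these, 6 of the 7 heavy chain genes, all 4 class II genes and 9 of the 12 interferon-stimulated genes were under 1 RPKM with Dox and met the limit on low levels only through KH2 cells. Of 8 other proteasome genes Psmb10 (81 against 193 reads, 2.47-fold lower, 1.89 to 3.24), Psmb5 and Psme2 were lower. The 7 loading chaperone and translocon genes summed to 1758 RPKM with Dox against 1334 RPKM in KH2 cells, at a median log2 ratio of 0.24, with Sec61b lower. All list calls in this comparison are given on library totals only, and TMM scaling moved the median of all genes by 0.39. Psmb10 (log2 ratio −1.24), Psmb5 (−1.19), Psme2 (−1.12) and Sec61b (−1.38), among others, passed the limit by less than that shift. The 6 other peptidase genes summed to 389 RPKM with Dox against 306 RPKM in KH2 cells, also at a median of 0.24, with 0 lower. Of 9 interferon signalling genes with reads 0 were lower. Irf1 fell 3.24-fold to 5.68 RPKM with Dox, against 18.4 RPKM in KH2 cells, and Rfxap, another RFX subunit, also fell. Rfx5 (2.64 against 5.07 RPKM) did not pass. Fibroblast markers summed to 633 RPKM with Dox against 1286 RPKM in KH2 cells, with 11 of 26 lower and none higher, and their part in the members' difference was not tested. The files of both KH2 libraries carry gene symbols and those of the engineered line do not, so cell line and form of deposit cannot be told apart.

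After 96 hours without Dox the members' summed level was near that of untreated KH2 cells, at 187 RPKM in the engineered line against 179 RPKM. In this comparison, added after the values were seen, only Psmb9 passed, at 2.87 RPKM against 7.51 RPKM and 2.62-fold lower (1.58 to 4.47), while 16.0% of 12625 genes were lower and 4.29% higher. The members' median log2 ratio was −0.28 and that of all genes tested −0.27. Intervals were above 1 for Tapbp at 1.75 (1.53 to 2.0) and H2-D1 at 1.37 (1.15 to 1.62), and below 1 for Tap1 at 0.509 (0.408 to 0.632), Tap2 at 0.467 (0.317 to 0.679), Psmb9 and Nlrc5 at 0.205 (0.103 to 0.378). H2-K1 at 0.923 (0.820 to 1.04) and B2m at 1.09 (0.986 to 1.21) included 1. Of all genes tested 23.7% had an interval above 1 and 50.3% below it, beside 2 and 4 of the 10 members. Of these, Nlrc5 was under the limit on low levels. Under TMM scaling and with ratios centred on genes of like length Psmb9 no longer passed and Tapbp passed as higher, and the log2 ratio of H2-K1, −0.11 on library totals, was 0.18 and 0.22. The interferon-stimulated genes stood at 641 RPKM in the engineered line at 96 hours and 240 RPKM in KH2 cells, with 19 of 24 higher. Of the 19 genes 6 were under 1 RPKM in KH2 cells and met the limit on low levels only through the 96 hour library.

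With PD0325901 given to both lines, again added after the values were seen, the members summed to 279 RPKM in the engineered line at 96 hours and 368 RPKM in KH2 cells. Tap1 (3.48 against 7.68 RPKM), Tap2 (1.55 against 4.93 RPKM) and Psmb9 (1.77 against 4.39 RPKM) fell and none of the 10 rose, with 15.6% of 12642 genes lower and 3.73% higher. H2-K1 had 39.6 RPKM in the engineered line against 71.4 RPKM in KH2 cells, a ratio of 0.554 (0.502 to 0.612), and did not pass. The members' median log2 ratio was −0.48 and that of all genes tested −0.27. Under TMM scaling and with ratios centred on genes of like length 1 of the 3 members still passed.

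**Figure D4:**
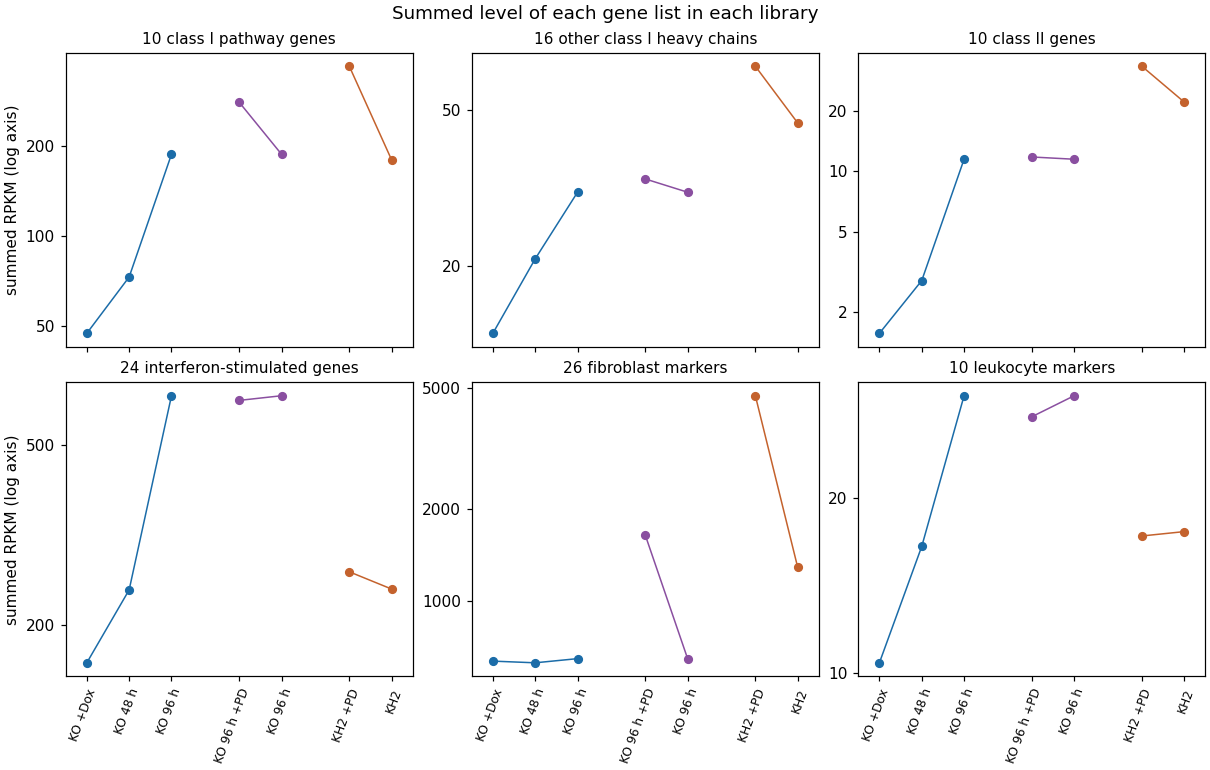
Summed RPKM (log axis, own scale per list) of the 10 class I pathway genes and 5 other gene lists in single libraries, with the KO 96 h library drawn in both the Dox series and the PD0325901 pair, and no error bars. The class I set reaches 187 RPKM after 96 hours without Dox, near the 179 RPKM of untreated KH2 cells, while the interferon-stimulated list is at 641 RPKM against 240 RPKM.

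Mek inhibition was applied in both cell states, and B2m was the member with the largest response. In wild-type KH2 cells B2m had 226 RPKM with PD0325901 against 87.1 RPKM without it, 2.60-fold higher (2.38 to 2.84), and was the 1 member of 10 to pass, with 3.86% of 12787 genes higher and 1.22% lower. H2-K1 had 71.4 RPKM with the inhibitor and 37.2 RPKM without it (ratio 1.92, 1.73 to 2.13), and H2-D1 27.0 and 14.8 RPKM (1.82, 1.55 to 2.14). The heavy chains thus had intervals above 1 but lay short of the 2-fold size. Tapbp, at 498 reads with and 329 reads without the inhibitor, had a ratio of 1.52 (1.32 to 1.75). Psmb9, at 32 and 55 reads with and without it, was the only member with an interval below 1, at 1.71-fold lower (1.09 to 2.73). Tap1, Tap2, Psmb8, Erap1 and Nlrc5 had intervals that included 1. Of all 12787 genes tested 2940 had an interval above 1 and 3295 below it. The members' median log2 ratio was 0.13, against −0.02 for all genes tested.

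In the Erk knockout line at 96 hours without Dox, PD0325901 left all 10 members short of the size limit, with 1.34% of 11920 genes higher and 0.587% lower, and the medians were 0.08 for the members and 0.01 for all genes tested. B2m had 181 RPKM with the inhibitor and 95.2 RPKM without it, a ratio of 1.90 (1.75 to 2.07) and a log2 ratio of 0.92, just under the size limit. H2-K1 had 39.6 and 34.3 RPKM with and without it (1.15, 1.03 to 1.29), and H2-D1 21.4 and 20.3 RPKM (1.06, 0.909 to 1.23). Erap1 had 83 reads with and 114 without the inhibitor, 1.36-fold lower (1.01 to 1.82), and the other members except B2m and H2-K1 had intervals that included 1. Of all genes tested 16.7% had an interval above 1 and 15.2% below it. Whether the response of H2-K1 differed between the cell states was not tested, as each state has 1 library per arm.

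The 4 libraries of both cell states were then fitted together for a shared effect of PD0325901, with edgeR's quasi-likelihood test. Cell state was a block, which left 1 residual degree of freedom. With no replicates, SE and p rest on how the response differs between the cell states and on a spread shared among all genes. They do not measure spread between replicate cultures. The SE was derived as the size of the log2 fold change divided by the square root of the test's F value. Of 14782 genes 6.05% were higher and 2.92% lower at a Benjamini-Hochberg adjusted p under 0.05. B2m rose with a log2 fold change of 1.15 ± 0.119 (SE; edgeR adjusted p = 1.11e-05), higher in both pairs, and DESeq2 gave an adjusted p of 3.79e-08. H2-K1 rose by 0.58 ± 0.146 (edgeR adjusted p = 0.0205), higher in both pairs, and did not pass with DESeq2 (adjusted p = 0.165). H2-D1 at 0.46 ± 0.169 (edgeR adjusted p = 0.108), Tapbp at 0.33 ± 0.134 (0.149) and Psmb9 at −0.74 ± 0.324 (0.189) did not pass, nor did the other 5 members. With edgeR and no block 0 of the 14782 genes passed, 270 being at an unadjusted p under 0.05, and with the earlier Dox libraries added to the edgeR fit 0 of the members passed and 1 was at an unadjusted p under 0.05.

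Of the related genes, H2-T23, a non-classical heavy chain, rose in both pairs and in the common test (log2 1.36 ± 0.258, edgeR adjusted p = 0.00326), but not with DESeq2 (adjusted p = 0.112). It had 107 reads with and 40 without PD0325901 in KH2 cells, and 54 and 23 reads with and without it in the knockout line. H2-K2 rose in KH2 cells (44 reads with and 18 without the inhibitor), and H2-T3 fell in the knockout line (10 and 32 reads). H2-T3 was under 1 RPKM with the inhibitor and met the limit on low levels only through the library without it. Psmb10 (−0.75 ± 0.192, edgeR adjusted p = 0.0222) and Irf1 (−0.56 ± 0.142, edgeR adjusted p = 0.0202) fell in the common test, and neither passed with DESeq2. Irf1 had 12.5 RPKM with and 18.4 RPKM without the inhibitor in KH2 cells, and 8.89 and 13.2 RPKM in the knockout line, so it moved opposite to B2m and H2-K1. Rfx5 had 4.41 and 5.07 RPKM with and without the inhibitor in KH2 cells and 3.23 and 3.55 RPKM in the knockout line, and did not pass. Of the 24 interferon-stimulated genes Ifi27, Ifit1 and Xaf1 rose in KH2 cells and none passed in the knockout line. Ifit1 was under 1 RPKM without the inhibitor and met the limit on low levels only through the library with it. In the common edgeR test Ddx58 (adjusted p = 0.0457) and Parp14 (0.0103) fell, and neither passed with DESeq2 (adjusted p = 0.447 and 0.151). The class II gene H2-Ab1 (log2 0.80 ± 0.232, edgeR adjusted p = 0.0426) and the interferon signalling genes Ifnar2 (0.61 ± 0.180, 0.0473) and Jak1 (0.42 ± 0.107, 0.0227) rose in it, and none of these 3 passed with DESeq2 (adjusted p = 0.603, 0.528 and 0.273).

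Fibroblast markers were higher with PD0325901 in both cell states. Their sum was 4706 RPKM with and 1286 RPKM without the inhibitor in KH2 cells, with 17 of 26 markers higher, and 1641 and 645 RPKM with and without it in the knockout line, with 16 of 26 higher. Of all genes tested 3.86% were higher in KH2 cells and 1.34% in the knockout line. Col1a1, a collagen of connective tissue, had 878 and 96.4 RPKM with and without the inhibitor in KH2 cells and 218 and 25.9 RPKM in the knockout line. All 26 fibroblast markers had a read in every library. The leukocyte markers summed to 17.2 and 17.5 RPKM with and without the inhibitor in KH2 cells, and to 27.6 and 30.0 RPKM in the knockout line. The part of fibroblast RNA in the rise of B2m was not tested.

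The genes with the pattern most like that of B2m over the 6 libraries were sought by the root mean square difference of centred log2 RPKM plus 0.5, among 9652 genes with at least 5 RPKM in the highest library and at least 100 reads in all. They were Atp2b4 (0.16), Cd109 (0.17), Lama4 (0.23), Col5a3 (0.24), Dkk3 (0.25), Nfix (0.26), Filip1l, Prrx1 and Cd302 (each 0.27) and Colec12 (0.29). Prrx1, which is 1 of the 26 fibroblast markers, had 4.69, 5.67 and 9.01 RPKM after 0, 48 and 96 hours without Dox, 19.4 RPKM at 96 hours with PD0325901, and 26.4 and 8.39 RPKM in KH2 cells with and without it. The member nearest to B2m was H2-D1 at rank 43 (0.40), followed by Tapbp at 104 and H2-K1 at 214. Psmb9 was at rank 5122 (1.01). Around H2-K1, an order added after the values were seen, H2-D1 was at rank 3 (0.29) behind Cdc42ep2 and Ero1a (each 0.25), and B2m was at rank 56 (0.54).

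Unique-read counts of the heavy chains are uncertain, as class I genes have similar copies. Of the 50 base windows of the H2-K1 transcript in the reference annotation, 8.79% also occur in another gene (6.94% in H2-D1), and of those of H2-D1 14.3% do (7.40% in H2-Q1). The share was 21.0% for Tapbp, 14% for Erap1 (all with the neighbour Cast), 12.6% for Tap2, 12.5% for Psmb9 (all with Tap1), 6.47% for Tap1 and 5.83% for Psmb8. B2m and Nlrc5 had no shared window. H2-K1 over H2-D1 per length was 1.99, 1.55 and 1.69 after 0, 48 and 96 hours without Dox and 1.85 at 96 hours with PD0325901, against 2.65 and 2.51 in KH2 cells with and without the inhibitor, with overlapping intervals within each cell line.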

How the data were processed

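PolyA RNA of 6 mouse ESC libraries was analysed, 1 per group. Per the file headers, the authors deposited for each gene the number of uniquely mapped reads (counts), the RPKM and how many percent of its length reads covered. RPKM was checked against the count, the length and the library total. Per the submitters' processing notes the genome build was mm9. Aligner and annotation are not given in the sources used here, and strand is not separated. Files were joined by gene ID over 18857 genes, with a gene that has no row set to 0, and 4 files without symbols were matched to RefSeq symbols, 18805 in all.

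Reads were scaled to library totals (9.05 to 9.95 times 1e6). The 95% intervals are exact (Clopper-Pearson), computed from how reads split between both libraries, and cover counting error only, since reads carry no molecular identifiers. Ratios used RPKM plus 0.5 with the size limits given in the text. The common test used edgeR 4.0.16 in R 4.3.3 (quasi-likelihood, TMM, at least 20 reads over 4 libraries) with DESeq2 1.42.0 as an alternative. The test was also run on simulated data with no difference between the cell states, which does not check its error in these libraries. The 4 libraries of the test gave a median of 13.8 prior degrees of freedom.

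All 10 members are named. From 13 other lists the text names up to 3 passing genes per comparison, by size of log2 ratio, and all where 5 or fewer passed, with Psmb5, Psmb6, Psmb7, Irf1 and Rfx5 always. Some results that this rule would name are not reported here. Ptprc, Lyz2, Cd3e, Col1a1, Fn1, Vim and the list genes named without having passed were chosen after their values were seen. The members and lists were chosen with earlier results of these data known. The comparisons of both cell lines at 96 hours, the ratios centred on 10 bins of length and the likeness to H2-K1 were added after the values were seen. The 9 letter interferon and NF-kappa-B motifs were chosen after a search with longer forms, whose shares are also given. Promoters are RefSeq entries of GRCm38.p6, and transcript windows come from the GENCODE annotation of the same genome.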

Additional observations from a re-analysis of the deposited data

Results flagged for a closer look

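In 3 members the ratio with PD0325901 pointed in opposite directions in the cell states. Tap2 had a log2 ratio of −0.15 in the Erk knockout line at 96 hours (38 reads with and 44 without the inhibitor) and of 0.34 in KH2 cells (111 and 86 reads). Psmb8 had 0.50 in the knockout line (43 and 29 reads) and −0.13 in KH2 cells (34 and 38 reads). Nlrc5 had 0.18 in the knockout line (19 and 13 reads) and −0.24 in KH2 cells (44 and 58 reads). All 6 of these ratios had counting intervals that included 1, none passed the size limits, and the difference between the cell states was not tested.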

How the results depend on the processing

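The counts of members called in the Dox series and for PD0325901 in each cell line kept within 1.5 times under every scaling, pseudocount and read limit tried. With 1 library per group no library could be left out. No paired analysis was possible because each group holds 1 library and the shared replicate number 1 is a name only. The cause of the moves below was not tested. Among all genes, a pseudocount of 0.1 gave 275 lower genes for PD0325901 in KH2 cells (156 at 0.5), 112 for PD0325901 in the knockout line (70) and 89 between 48 and 96 hours (55). A pseudocount of 1 gave 44 lower genes for PD0325901 in the knockout line, 160 for 48 hours without Dox (242), and 314 higher (533) and 35 lower between 48 and 96 hours. A limit of 50 reads gave 46 lower genes for PD0325901 in the knockout line. For the engineered line with Dox over KH2, TMM scaling gave 1006 higher and 1419 lower genes, and centring on genes of like length 962 and 1325 (343 and 2662 on totals). For the engineered line at 96 hours over KH2, TMM gave 1015 higher and 1144 lower, and centring 977 and 1129 (541 and 2016), each with 1 member higher and 0 lower, while a pseudocount of 0.1 or no limit on low levels gave 2 members lower. With PD0325901 in both lines, TMM gave 959 and 1077, and centring 925 and 1073 (472 and 1975), and 1 member was lower under each and with a pseudocount of 1. In the common test DESeq2 called 1 member and 344 higher and 106 lower genes (edgeR 2, 894 and 432), and edgeR with RLE size factors called 739 lower and H2-D1 as a further member. With no cell-state block edgeR called 0 members, 0 higher and 0 lower. With 6 libraries in 3 states it called 0 members, 103 higher and 15 lower. Adjusted p over the alternatives ran from 4.46e-15 to 1.0 for B2m and from 1.28e-04 to 1.0 for H2-K1. Members that changed sign without passing were Nlrc5 with DESeq2 (0.02), and Tap1 (0.07), Erap1 (0.04) and Nlrc5 (0.24) in the 6-library fit. Depth limits Psmb8, Psmb9, Tap2 and Nlrc5 most, with 1 to 14 reads in the libraries with the fewest.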
